A study of Mus musculus with 8 samples.

Results

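Chemokine ligands made by dendritic cells were followed here as 10 genes, Ccl22, Ccl17, Ccl24, Ccl2, Ccl3, Ccl4, Ccl6, Ccl9, Cxcl2 and Cxcl10, chosen as a list of gene symbols. All 10 are among the 11756 genes of the deposited table. Their RNA was compared between 4 libraries of cells loaded with acetylated low density lipoprotein (acLDL) and 4 control libraries, whose vehicle the labels do not name. Both groups were CD11c positive cells obtained by FACS from the marrow of C57BL/6 mice, with the exposure starting on day 6 of culture and lasting 24 h. CD11c is an integrin chain found on dendritic cells and also on some macrophages, and acLDL is a chemically altered lipid particle taken up through scavenger receptors. The design text gives acLDL the role of an atherosclerosis-like surrounding. The labels name no separate animals or cultures for the libraries of a group, so a p-value here reflects how far single libraries scatter, and that scatter may be technical.

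Chemokines are small secreted proteins that draw leukocytes along a gradient through G protein-coupled receptors. The Ccl and Cxcl names follow the spacing of the first conserved cysteines. Cultured dendritic cells are known for Ccl22 and Ccl17, which bring in T cells that carry CCR4, while inflammatory signals induce ligands for monocytes, neutrophils and effector T cells. In plaques, Ccl2 and its receptor CCR2 are known for bringing in monocytes.

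The deposited values are normalized signals in the authors' scale, with library totals from 3917426 to 4385052 and an estimated depth of 3230914 to 5458305 reads. This depth is rough, because only 11.3% to 13.9% of values under 40 were whole multiples of the step used for it. Genes listed at 0 numbered 820, 2178, 2574 and 1310 in acLDL libraries 1 to 4, against 1406, 1340, 662 and 1065 in control libraries 1 to 4. A principal component that carried 62.6% of the variance placed acLDL library 1, at -66.6, beside control libraries 2 to 4, at -75.3 to -56.4. Control library 1, at 9.22, lay closer to acLDL library 4, at 32.2, and acLDL libraries 2 and 3 lay farthest off, at 95.6 and 129. By Spearman correlation over genes, the library closest to acLDL library 1 was control library 3, and the one closest to control library 1 was acLDL library 4. Labels were used as given, and whether libraries exchanged labels was not tested. This axis ran with transcript length. A short-transcript index, the mean log2 deviation over 485 genes with a longest coding transcript shorter than 1000 nt (members left out), was 1.11, -1.35, -2.25 and -0.29 in acLDL libraries 1 to 4, against 0.07, 0.93, 1.07 and 0.71 in control libraries 1 to 4. Fold changes of the tested ligands are therefore given with all libraries, without acLDL library 1, and with the index as a covariate. acLDL library 1 was singled out after its values were seen, so p-values without it describe these data and are not independent tests. Since the index was lower in acLDL libraries 2 to 4 than in every control, the covariate and the treatment cannot be fully told apart.

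None of the ligands passed the test across all genes. Genes that reached a value of 10 in 4 or more libraries were tested with limma on log2(value + 5), which left 8 of the 10 members among 10091 genes. Ccl24 and Cxcl10 did not reach this minimum. Of the 8 tested members, 0 passed an adjusted p of 0.05, and 0 of all tested genes did (0%). At an unadjusted p under 0.05 there were 2 members, Ccl22 with a higher and Cxcl2 with a lower mean log2 value in acLDL cells, against 1650 of all genes, or 16.4%, with 7.42% higher and 8.93% lower. Groups did not overlap for 1 tested member, Ccl22, against 5.64% of tested genes in either direction, with 3.44% higher and 2.2% lower in acLDL cells. Over all 10 members, the mean log2 value in acLDL cells was below that of controls for 6 and above it for 4. Their median difference was -0.93, or -1.13 without Ccl24, against a median of -0.13 over all tested genes, where 55.7% were lower. The 485 short-transcript genes had a median of -1.49.

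**Figure D1:**
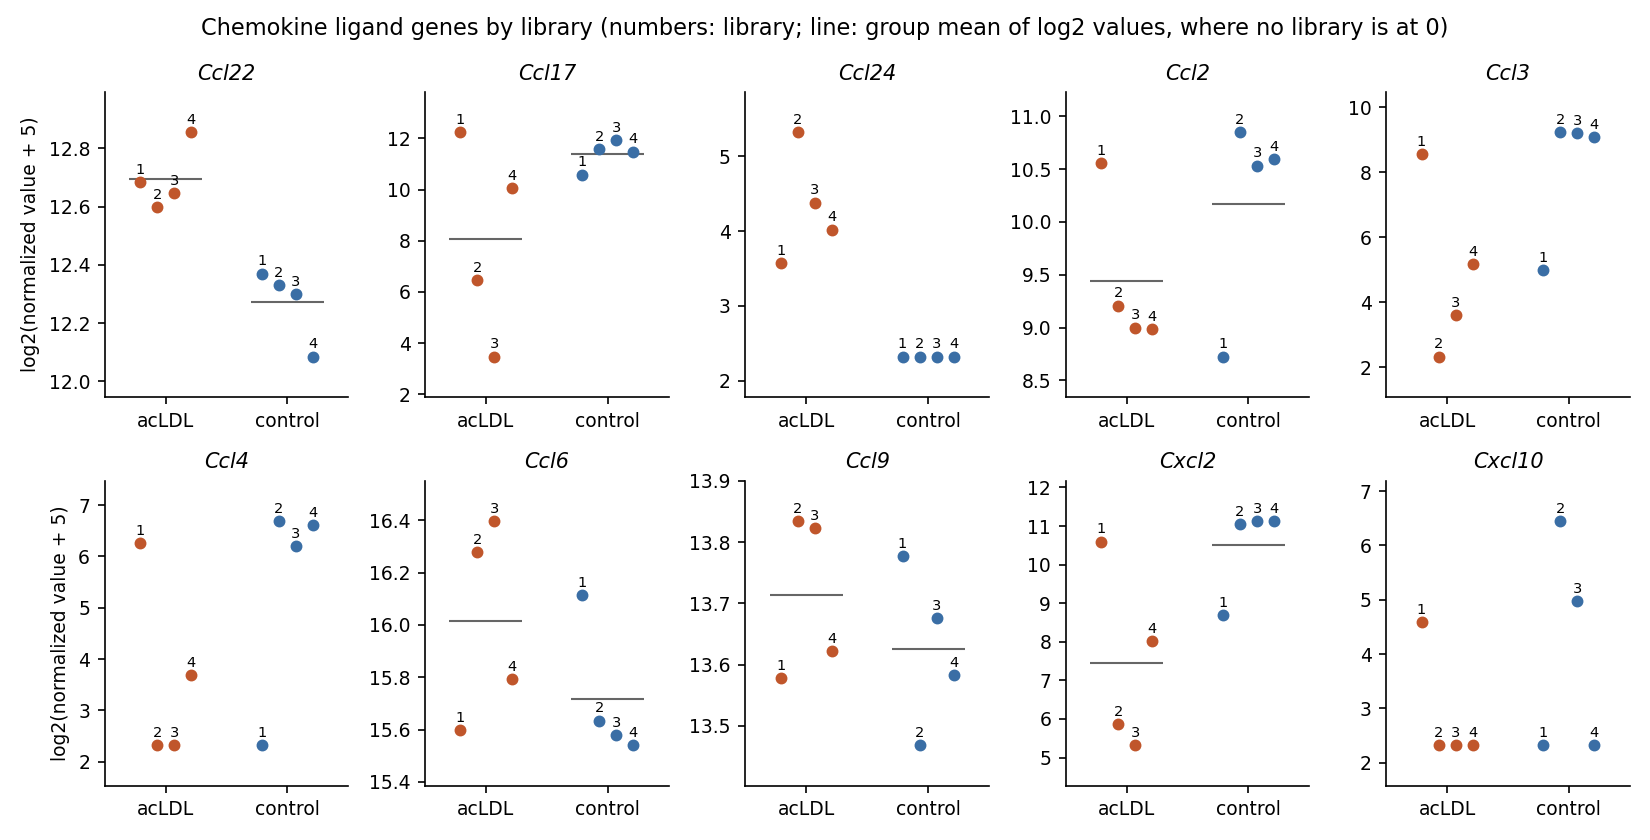
Each panel plots 1 chemokine ligand gene as log2(normalized value + 5) on its own vertical axis, with acLDL libraries at the left, control libraries at the right, the library number above each point and a line at the group mean where no library is at 0. Ccl22 and Ccl24 are the members whose groups do not overlap, and acLDL library 1 lies with control libraries 2 to 4 for Ccl2, Ccl3, Ccl4 and Cxcl2.

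Ccl22, which encodes the CCR4 ligand also called macrophage-derived chemokine (chromosome 8, 94745590 to 94751699, plus strand, GRCm38), was higher in each acLDL library than in each control. Its normalized value was 6573, 6196, 6402 and 7402 in acLDL libraries 1 to 4, against 5286, 5141, 5037 and 4337 in control libraries 1 to 4. The means were 6643 ± 529 in acLDL cells and 4950.4 ± 421 in controls (SD, n = 4 each), a 1.34-fold difference. On the log2(value + 5) scale the fold change was 0.42 (SE 0.15), with limma's unadjusted p = 0.0175 and adjusted p = 0.298. It was 0.43 without acLDL library 1, with adjusted p = 0.0621, and 0.45 with the short-transcript index. The sign held under all 18 alternative settings, from 0.29 after quantile normalization to 0.50 without acLDL libraries 2 and 3. Most of these could not turn it. Changes of filter, moderation or replicate block leave this fold change as it is. With groups that do not overlap, leaving out libraries or changing the pseudocount keeps its sign. Relative to the median of all tested genes, which was -0.13 as deposited and 0.13 after quantile normalization, Ccl22 stood 0.55 higher as deposited and 0.16 higher after it.

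Ccl17, the other CCR4 ligand, lies 58.8 kb downstream of Ccl22 on the same strand (94810453 to 94812036) and varied far more. Its normalized value was 4808, 83.8, 6.08 and 1064 in acLDL libraries 1 to 4, against 1528, 3075, 3861 and 2859 in control libraries 1 to 4. The highest and the lowest library of the whole set were both acLDL libraries, 791-fold apart, and acLDL libraries 2 to 4 lay below every control. The log2 fold change was -3.33 (SE 1.62) with limma's adjusted p = 0.301. Without acLDL library 1, where 2190 of 10091 genes passed, it was -4.73, with adjusted p = 0.0373. Without acLDL library 3 it was -1.80, without acLDL libraries 2 and 3 it was -0.25, and with the short-transcript index it turned to 0.17. Ccl17 has the shortest transcript of the members, at 514 nt, against 2216 nt for Ccl22. The within-library ratio of Ccl22 over Ccl17, as the difference of their log2(value + 5), was 0.45, 6.13, 9.18 and 2.79 in acLDL libraries 1 to 4 and 1.79, 0.74, 0.38 and 0.60 in control libraries 1 to 4. The difference of 3.76 reached p = 0.114 over 70 assignments in an exact permutation test, two-sided, and p = 0.171 after Benjamini-Hochberg adjustment over the 3 ratios tested. It was 3.94 with a pseudocount of 1 and 3.40 with 20. Without acLDL library 1, the only acLDL library inside the control range of this ratio, it was 5.15. The adjusted p in the exact permutation test was then 0.0429, from the smallest unadjusted p that the remaining libraries allow.

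The windows around the starts of this neighbouring pair are shown because these genes share a receptor and a locus but took different values across the libraries. They run from 250 bases before to 50 bases after the start, from RefSeq on GRCm38.p6, at chr8:94745434-94745733 and chr8:94810203-94810502, both on the plus strand, with matches to the motifs named further on in capitals.
Ccl22: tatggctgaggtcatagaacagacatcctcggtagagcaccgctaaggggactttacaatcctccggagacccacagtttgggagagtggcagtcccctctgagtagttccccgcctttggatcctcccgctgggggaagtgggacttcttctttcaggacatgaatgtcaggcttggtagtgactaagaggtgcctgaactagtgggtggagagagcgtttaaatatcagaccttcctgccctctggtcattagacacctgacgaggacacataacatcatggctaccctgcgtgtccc
Ccl17: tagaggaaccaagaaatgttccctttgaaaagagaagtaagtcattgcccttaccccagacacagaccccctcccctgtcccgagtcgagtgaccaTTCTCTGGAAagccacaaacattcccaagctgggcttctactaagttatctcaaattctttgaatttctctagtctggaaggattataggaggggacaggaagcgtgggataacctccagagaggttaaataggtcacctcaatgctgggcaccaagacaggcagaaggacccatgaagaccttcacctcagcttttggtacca
RefSeq starts can differ from the starts of the gene coordinates printed here, which are from GENCODE. The window of Ccl22 holds none of the motifs searched. The window of Ccl17 holds 1 match to the STAT palindrome, TTC and GAA with 4 bases between, starting 154 bases before the RefSeq start. This motif occurs in 6.95% of the 32851 promoter windows of the same length.

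Ccl24 encodes eotaxin-2, a CCR3 ligand that draws eosinophils and is known in macrophages stimulated with interleukin 4 (chromosome 5, 135569937 to 135573049, minus strand). It was listed at 6.91, 34.9, 15.8 and 11.2 in acLDL libraries 1 to 4 and at 0 in each of the 4 controls. The groups did not overlap, but all values were low and the gene was not tested in the main fit. Without the filter on low values, limma's adjusted p was 0.323. No deposited value lies between 0 and 5, so a listed 0 may stand for a low estimate, and no fold is given. Of all 11756 genes, 11 were listed at 0 in the 4 controls and above 0 in the 4 acLDL libraries, or 0.0936%.

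Ccl2, the monocyte chemoattractant that binds CCR2 (chromosome 11, 82035571 to 82037453, plus strand), was split within both groups. Its normalized value was 1500.5, 587, 507 and 503 in acLDL libraries 1 to 4, against 418, 1838, 1477 and 1540.2 in control libraries 1 to 4. The lowest library was thus a control, and acLDL library 1 lay among the other controls. The means were 774 ± 486 in acLDL cells and 1318 ± 621 in controls (SD, n = 4 each), with a log2 fold change of -0.74 (SE 0.52) and limma's adjusted p = 0.407. The value was -1.11 without acLDL library 1 and 0.052 with the short-transcript index.

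Ccl3 and Ccl4 encode macrophage inflammatory proteins 1 alpha and 1 beta, which draw monocytes and T cells, and they lie 13.2 kb apart on chromosome 11 in opposite directions (83647844 to 83649355, minus strand, and 83662584 to 83664683, plus strand). Ccl3 was listed at 374, 0, 7.09 and 30.9 in acLDL libraries 1 to 4, against 26.8, 597, 588 and 535 in control libraries 1 to 4. Ccl4 was listed at 71.6, 0, 0 and 7.89 in acLDL libraries 1 to 4, against 0, 98.3, 68.8 and 92.2 in control libraries 1 to 4. For both genes, acLDL library 1 and control libraries 2 to 4 were high and the remaining libraries low, so the groups overlapped. Over the whole table, acLDL libraries 2 and 3 had the most genes listed at 0. The log2 fold change was -3.22 (SE 1.42) for Ccl3, with limma's adjusted p = 0.298, and -1.81 (SE 1.19) for Ccl4, with adjusted p = 0.378. Without acLDL library 1, where 2190 of 10091 genes passed, Ccl3 was at -4.43 with adjusted p = 0.0332. Ccl4 was then at -2.68 with adjusted p = 0.102. Without acLDL libraries 2 and 3, Ccl3 was at -1.26 and Ccl4 at -0.48. With the short-transcript index the values were -0.55 for Ccl3 and 0.27 for Ccl4.

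The log2 ratio of Ccl3 over Ccl4 was 2.31, 0, 1.27 and 1.48 in acLDL libraries 1 to 4 and 2.67, 2.54, 3.01 and 2.47 in control libraries 1 to 4. With the pseudocount of 5 these groups did not overlap, and the difference of -1.41 gave p = 0.0286 by the exact permutation test, the smallest that 70 assignments allow, and p = 0.0857 after adjustment over the 3 ratios. Ccl4 was listed at 0 in acLDL libraries 2 and 3 and control library 1, and Ccl3 in acLDL library 2, so the pseudocount enters these ratios directly. With a pseudocount of 1 the difference was -1.44, and with 20 it was -1.32, each with an adjusted p of 0.171 in the exact permutation test. Without acLDL library 1 the difference was -1.76, with an adjusted p of 0.0429 in that test, again from the smallest unadjusted p possible.

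Cxcl2, a CXCR2 ligand that draws neutrophils (chromosome 5, 90903871 to 90905938, plus strand), had the second smallest p of the members. Its normalized value was 1543, 53.2, 34.9 and 254 in acLDL libraries 1 to 4, against 409, 2109, 2223 and 2242 in control libraries 1 to 4. acLDL libraries 2 to 4 lay below every control, and acLDL library 1 lay inside the control range. The log2 fold change was -3.05 (SE 1.11), with limma's unadjusted p = 0.0233 and adjusted p = 0.298. Without acLDL library 1, where 2190 of 10091 genes passed, it was -4.10, with adjusted p = 0.0239. It was -1.19 without acLDL libraries 2 and 3, and -0.66 with the short-transcript index. Although its longest transcript, at 1859 nt, is not short, it was low in the libraries where short transcripts were low. Of its 31-base words, 7.59% also occur in Cxcl3, so an aligner that shares reads between similar transcripts may divide reads between the pair.

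Promoter windows of Cxcl2 and Ccl3 are shown because both genes were high and low in the same libraries. They lie at chr5:90903649-90903948 on the plus strand and chr11:83649329-83649628 on the minus strand, with motif matches in capitals as before.
Cxcl2: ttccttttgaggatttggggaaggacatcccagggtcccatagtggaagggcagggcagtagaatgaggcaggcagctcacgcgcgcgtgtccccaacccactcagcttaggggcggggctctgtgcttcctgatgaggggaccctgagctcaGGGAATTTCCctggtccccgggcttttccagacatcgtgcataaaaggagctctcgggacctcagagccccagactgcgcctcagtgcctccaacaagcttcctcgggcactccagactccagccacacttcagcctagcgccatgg
Ccl3: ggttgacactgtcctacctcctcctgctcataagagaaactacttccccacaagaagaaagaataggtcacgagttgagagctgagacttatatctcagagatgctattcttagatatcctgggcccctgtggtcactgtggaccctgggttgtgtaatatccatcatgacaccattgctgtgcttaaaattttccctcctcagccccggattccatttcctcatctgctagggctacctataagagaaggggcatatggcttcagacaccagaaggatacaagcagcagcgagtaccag
Cxcl2 holds 1 match to the NF-kB motif, GGGA, any base, TT, any base and CC, starting 97 bases before the RefSeq start. Ccl3 holds none of the motifs. Both strands were searched for these motifs, the TATA motif TATAAA, the interferon response motif (GAAA, 2 bases, GAAA) and the AP-1 motif TGANTCA. By symbol, 7 members matched the promoter table, and Ccl2, Ccl4 and Ccl24 did not. The NF-kB motif occurred in 2 of these 7, Cxcl2 and Cxcl10, and in 1.20% of all windows. The interferon motif occurred in 1, Cxcl10, and in 3.44% of all windows. The AP-1 motif occurred in 2, Cxcl10 and Ccl9, and in 7.81% of all windows, and the TATA motif in 1, Ccl9, and in 13.6%. A match is a run of letters and not a shown binding site.

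Cxcl10, the interferon-induced CXCR3 ligand (chromosome 5, 92346638 to 92348889, minus strand), was near the floor of the table. It was listed at 19.0 in acLDL library 1 and at 0 in the other 3, against 0, 82.5, 26.4 and 0 in control libraries 1 to 4. The groups overlapped, and the gene was not tested in the main fit. Without the filter on low values, limma's adjusted p was 0.530.

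Ccl6 and Ccl9, mouse CCR1 ligands of myeloid cells whose genes lie 9.25 kb apart on chromosome 11 (83587882 to 83593087 and 83572919 to 83578636, both minus strand), held most of the ligand signal. Ccl6 was at 49539.8, 79475, 86312 and 56743 in acLDL libraries 1 to 4, against 70949, 50864, 48929 and 47633 in control libraries 1 to 4. It was highest where Ccl3 and Cxcl2 were lowest, and control library 1 stood above the other controls. Its mean was 68017 ± 17649 in acLDL cells and 54594 ± 10984 in controls (SD, n = 4 each), with a log2 fold change of 0.30 (SE 0.22) and limma's adjusted p = 0.424. It was 0.44 without acLDL library 1 and -0.094 with the short-transcript index. Ccl9 varied least of all members, with a mean of 13476 ± 1244 in acLDL cells and 12677 ± 1153 in controls (SD, n = 4 each). Its log2 fold change was 0.09 (SE 0.15) with adjusted p = 0.727. It was 0.13 without acLDL library 1, and its sign turned after quantile normalization and with the short-transcript index. The log2 ratio of Ccl9 over Ccl6 was -2.30 ± 0.25 in acLDL cells and -2.09 ± 0.20 in controls (SD, n = 4 each), and the exact permutation test gave p = 0.229. Without acLDL library 1 the difference was -0.31, against -0.21 with all libraries.

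The 10 ligands together took 1.85%, 2.39%, 2.46% and 2.01% of the listed signal in acLDL libraries 1 to 4, against 2.23%, 1.77%, 1.80% and 1.80% in control libraries 1 to 4. Ccl6 alone took 1.20% to 1.97% in acLDL libraries and 1.17% to 1.71% in controls. Per kb of the longest coding transcript, Ccl6 had the highest level in both groups, at 47234 ± 12257 in acLDL cells and 37912 ± 7628 in controls (SD, n = 4 each). Ccl9 followed in acLDL cells, with 4483 ± 414 in acLDL cells and 4217 ± 383 in controls. Ccl22 per kb was 2998 ± 239 in acLDL cells and 2234 ± 190.2 in controls, and Ccl17 was 2899 ± 4403 in acLDL cells and 5508 ± 1886 in controls. The kit in the extract protocol reads the 3' end of messages, so a level per length may understate long transcripts, and the order of Ccl9 and Ccl17 in controls depends on it. As listed, Ccl9 was at 12677 ± 1153 and Ccl17 at 2831 ± 969 in controls (SD, n = 4).

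**Figure D2:**
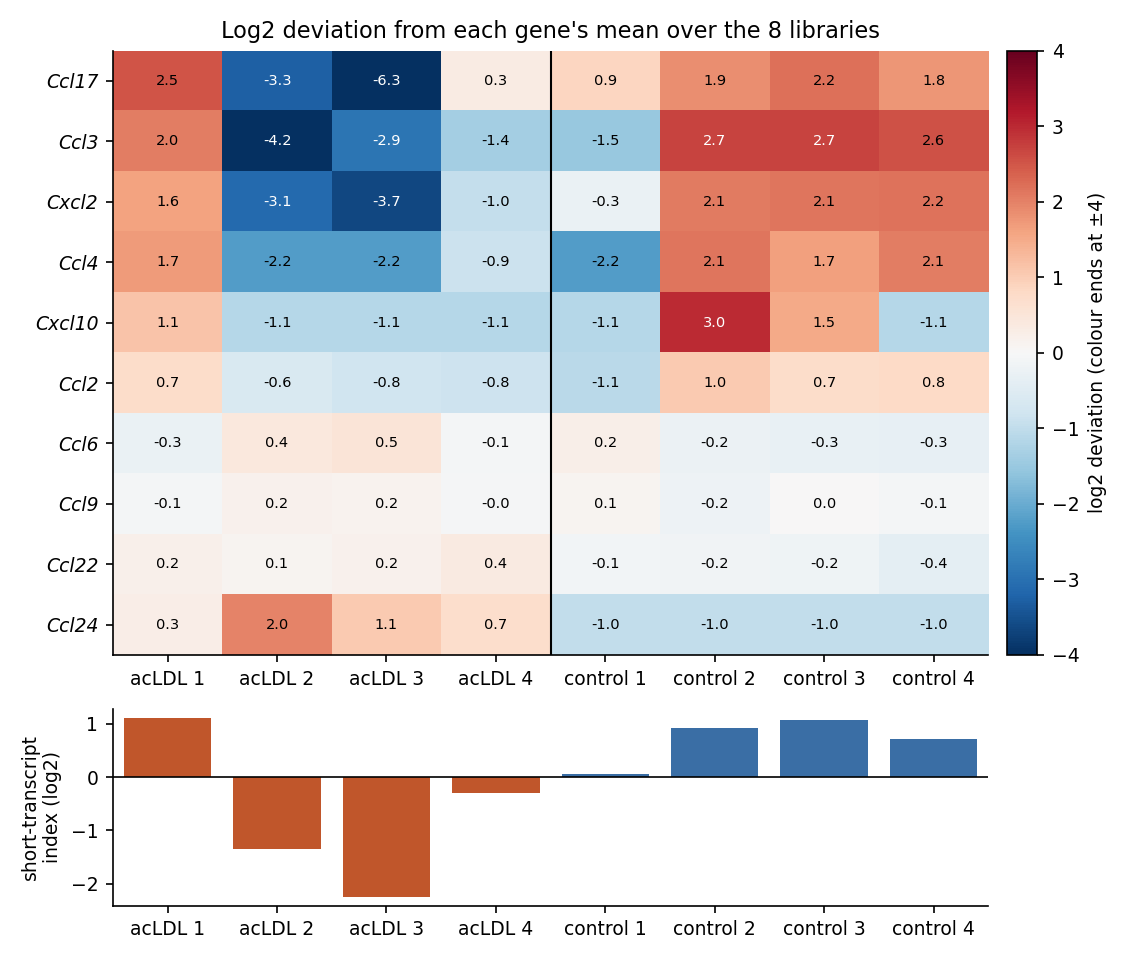
The upper panel shows each ligand (rows) in each library (columns, acLDL left of the line and control right) as the log2 deviation from its mean over the 8 libraries, and the bars below show the short-transcript index of the same libraries. Ccl17, Ccl3, Cxcl2 and Ccl4 run high in acLDL library 1 and control libraries 2 to 4 and low in acLDL libraries 2 and 3, where the index is lowest.

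The members showed different patterns over the libraries. In 5 of the 8 tested members, Ccl17, Ccl2, Ccl3, Ccl4 and Cxcl2, acLDL library 1 and control libraries 2 to 4 were all above the other 4 libraries, a pattern described after the values were seen. It was met by 21.5% of all tested genes. The reverse was met by 1 member, Ccl6, and by 11.4% of tested genes. Ccl22 followed neither, and split by treatment. The genes most like each member were found by the root-mean-square difference of centred log2 values over the 8 libraries. For Ccl22 these were Aldh9a1 (0.08), Rbbp4 (0.09) and Rpl28 (0.11). For Ccl17 they were the ribosomal protein genes Rpl39 (0.11), Rpl18 (0.18) and Rps9 (0.22), and for Cxcl2 they were Ssbp1 (0.17), Hnrnph2 (0.28) and Ppbp (0.29). The SD of the member's own log2 values over the 8 libraries was 0.25 for Ccl22, 3.12 for Ccl17 and 2.40 for Cxcl2. The differences are therefore not comparable between members. Points of such a comparison share libraries, depth and composition.

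**Figure D3:**
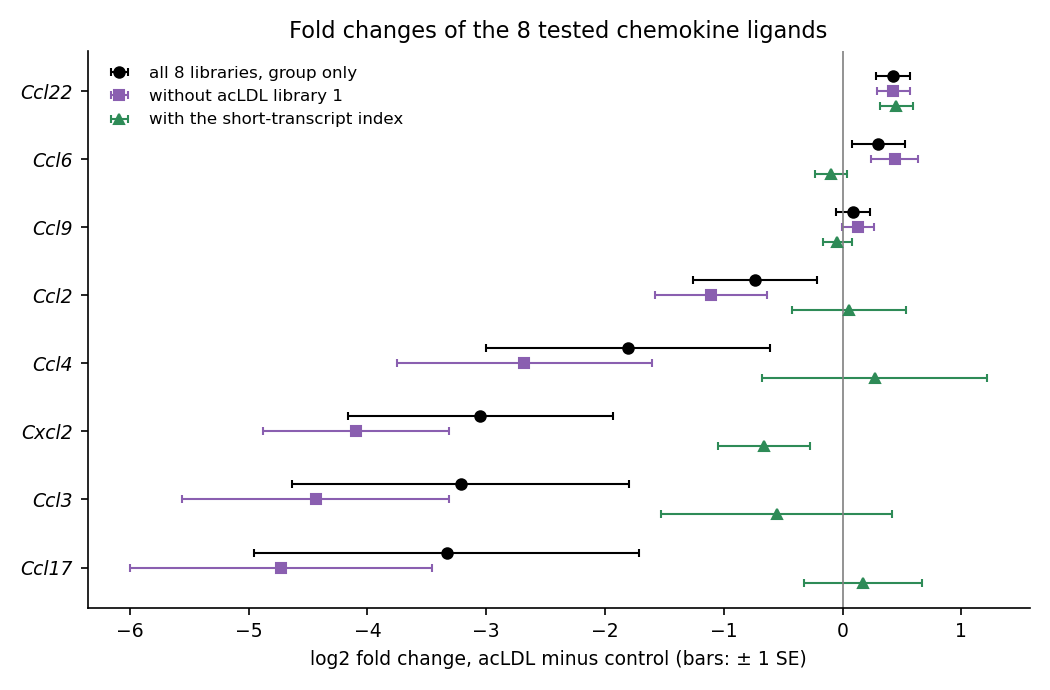
Log2 fold changes (acLDL minus control, horizontal axis) of the 8 tested ligands are drawn with bars of 1 SE for all 8 libraries, without acLDL library 1 and with the short-transcript index as a covariate. Ccl22 stays between 0.42 and 0.45 in these fits, while Ccl17 is at -3.33 with all libraries and at 0.17 with the index.

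Transcript length went along with these differences. Of the members, 4 have a longest coding transcript under 1000 nt, namely Ccl17, Ccl4 (660 nt), Ccl3 (766 nt) and Ccl2 (813 nt), against 5.25% of the table's genes with a coding length. All 4 had a negative log2 fold change. Of the tested members with longer transcripts, Cxcl2 had a negative value and Ccl22, Ccl6 and Ccl9 positive ones. The AU-rich pentamer ATTTA, a mark of short-lived messages, occurred in the 3' untranslated region of 8 of the 10 members and of 72.2% of 10069 genes with such a region. Its density was 12.2 per kb in Ccl3, 7.36 in Cxcl2, 6.62 in Ccl4, 4.24 in Ccl6, 3.64 in Ccl2, 3.01 in Cxcl10, 2.03 in Ccl9, 1.10 in Ccl22 and 0 in Ccl17 and Ccl24, against 1.85 over all genes pooled. Of the members above the pooled density, Ccl6 and Ccl9 had higher means in acLDL cells, and Ccl3, Cxcl2, Ccl4, Ccl2 and Cxcl10 lower ones. Of those below it, Ccl22 and Ccl24 had higher means and Ccl17 a lower one. Whether message stability had a part in these values was not tested.

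**Figure D4:**
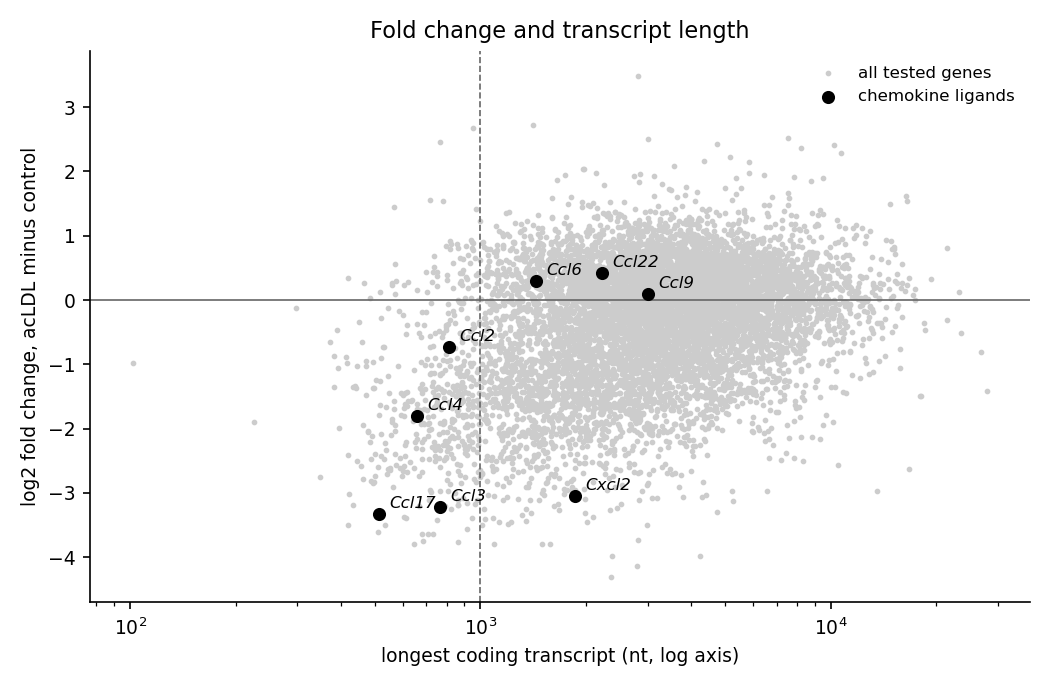
The log2 fold change (acLDL minus control, vertical axis) is plotted against the longest coding transcript in nt (log axis, dashed line at 1000 nt) for all tested genes in grey and the 8 tested ligands in black. Ccl17, Ccl4, Ccl3 and Ccl2 lie left of the line and below 0, and Cxcl2 lies below 0 at 1859 nt.

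Other chemokine genes also gave no call. Of 27 further ligands listed, 10 are in the table and 9 were tested, with 0 past the threshold in either direction, 3 with a higher and 6 with a lower mean log2 value in acLDL cells, and a median log2 fold change of -1.10. The 2 with the smallest p were Ccl5, which draws T cells and monocytes, at 1480.4 ± 1736 in acLDL cells and 4044 ± 913 in controls (SD, n = 4 each), and Ppbp, a platelet chemokine. The log2 fold change was -2.48 for Ccl5 and -2.66 for Ppbp, each with limma's adjusted p = 0.298. Of 24 chemokine receptors listed, 12 are in the table and were tested, with 0 past the threshold and a median of -0.20. Ccr2, the receptor of Ccl2, was at 1639, 738, 796 and 1180.5 in acLDL libraries 1 to 4, against 1849, 2100.2, 2044 and 1941 in control libraries 1 to 4, without overlap (log2 fold change -0.94, SE 0.26, adjusted p = 0.298). Cxcr4 averaged 105 ± 28.3 in acLDL cells and 51.3 ± 24.0 in controls (SD, n = 4 each), with a log2 fold change of 1.04 and adjusted p = 0.298. Among receptors of the members, named after their values were seen, Ccr1 had a log2 fold change of -0.63, Cxcr2 of -1.66 and Ccr3 of 0.28, and none passed (adjusted p = 0.298 to 0.568).

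**Figure D5:**
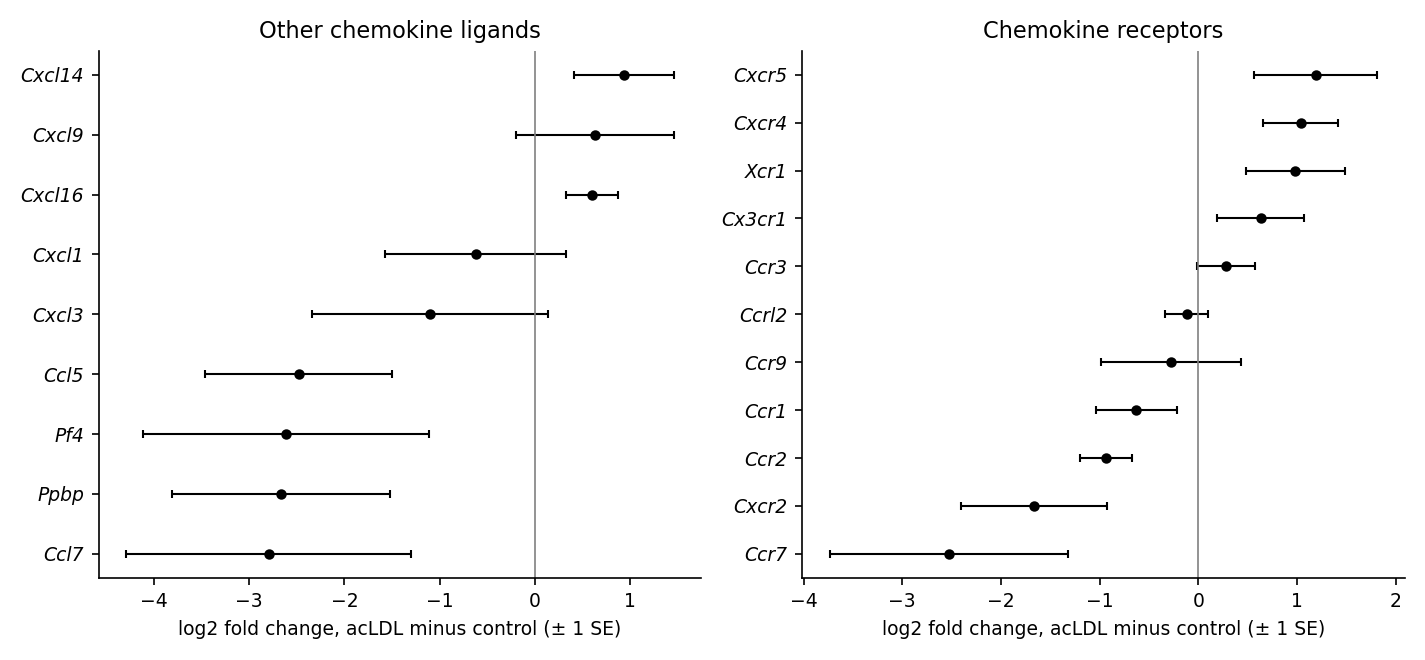
Log2 fold changes (acLDL minus control, bars of 1 SE) are shown for the 9 tested ligands outside the member list at the left and the tested receptors, less 1 that is not shown, at the right. None passed the threshold, with Cxcl16 at 0.60, Ccl7 at -2.80, Cxcr5 at 1.19 and Ccr7 at -2.53.

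Signalling genes that act upstream of these ligands were listed as well. Of 16 NF-kB factors and inhibitors, 0 passed, 6 had a higher and 10 a lower mean in acLDL cells, with a median of -0.49. Nfkb2 averaged 1949 ± 685 in acLDL cells and 1012 ± 132 in controls (SD, n = 4 each), and Rel averaged 153 ± 28.5 in acLDL cells and 251 ± 79.7 in controls. Of 18 genes of interleukin 4 and GM-CSF signalling, 0 passed, 10 were higher and 8 lower, with a median of 0.11. The receptor chain gene Il4ra averaged 925 ± 329 in acLDL cells and 467 ± 123 in controls (SD, n = 4 each), and the transcription factor gene Klf4 averaged 111 ± 18.4 in acLDL cells and 224 ± 41.0 in controls. Of 12 interferon signalling genes, 0 passed, with a median of -0.42. Irf3 averaged 256 ± 92.2 in acLDL cells and 143 ± 26.2 in controls (SD, n = 4 each), and Irf5 65.2 ± 82.4 in acLDL cells and 139 ± 70.9 in controls. The log2 fold changes were 0.88 for Nfkb2, -0.65 for Rel, 0.94 for Il4ra, -0.98 for Klf4, 0.76 for Irf3 and -1.49 for Irf5, each with limma's adjusted p = 0.298.

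Markers of the sorted cells and of other cell types also differed between the libraries. In bulk RNA, fewer cells of a type and less RNA per cell cannot be told apart. Markers listed at 0 are to be read beside the whole table, where acLDL libraries 2 and 3 had the most genes at 0. Itgax, which encodes CD11c, was listed at 189, 10.004, 0 and 42.7 in acLDL libraries 1 to 4, against 81.5, 182, 195 and 172 in control libraries 1 to 4. Of 12 dendritic cell markers all are in the table, with a summed value of 35497 to 45594 in acLDL libraries and 32068 to 35973 in controls. Clec10a was listed at 0 in acLDL libraries 2 to 4 and control library 1, Flt3 in acLDL libraries 3 and 4 and control library 1, Zbtb46 in acLDL libraries 3 and 4, Batf3 in acLDL libraries 2 and 3, and Cd209a in acLDL libraries 2 and 4 and control library 1. Of the 11 tested, 2 had a higher and 9 a lower mean log2 value in acLDL cells, with a median log2 fold change of -1.80. Most of the sum was H2-Eb1, a class II antigen presentation gene, which averaged 34549.8 ± 9348 in acLDL cells and 22132 ± 3387 in controls (SD, n = 4 each). H2-Aa, H2-Ab1 and Cd74, also class II presentation genes, had lower means in acLDL cells, with log2 fold changes of -3.45, -2.44 and -1.86. The value for H2-Eb1 was 0.61. Ciita was the other marker of this list with a higher mean log2 value. It was listed at 383, 688, 760 and 559 in acLDL libraries 1 to 4, against 627, 493, 421 and 413 in control libraries 1 to 4. All 14 macrophage and monocyte markers summed to 31577 to 64584 in acLDL libraries and 48065 to 71942 in controls, with Cd14, Adgre1 and Ly6c2 at 0 in acLDL libraries 2 and 3 and Cd68, C1qa and C1qc in acLDL library 3. Lyz2, which encodes lysozyme, averaged 24220.0 ± 17417 in acLDL cells and 47062 ± 12277 in controls (SD, n = 4 each), and had the highest value of the list in every library. Of these 14 markers, 3 had a higher and 11 a lower mean log2 value in acLDL cells. The 3 higher were Csf1r (log2 fold change 0.65), Fcgr1 (0.69) and Mertk (0.45). Of 14 granulocyte markers, 12 are in the table, with sums of 8784 to 18815 in acLDL libraries and 11853 to 20932 in controls. Of 11 eosinophil, mast cell and basophil markers, 8 summed to 168 to 1136 in acLDL libraries and 814 to 1225 in controls. Lymphocyte markers, with 3 of 10 in the table, summed to 61.6 to 95.1 in acLDL libraries and 19.9 to 40.8 in controls. Stromal and osteoclast markers, with 4 of 9, summed to 235 to 377 in acLDL libraries and 253 to 397 in controls. For the erythroid and megakaryocyte list, 1 of 9 is in the table, Hbb-bs, at 54.1 to 189.7 in acLDL libraries and 164 to 1429 in controls. Their part in the ligand values was not tested.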

How the data were processed

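Poly(A) RNA of 8 libraries was read with a Lexogen QuantSeq V2 kit for the 3' end, per the labels' protocols, although the design text speaks of the 5' end. Among tools, bcl2fastq 2.20, per the submitters' processing notes, is named with kallisto and mm10. How the authors filtered or scaled the values, and which annotation they took, is not given in the sources used here. Values in the deposited table are a normalized signal, 1 for each gene and library. Its name speaks of raw counts, but in each library only 11.3% to 13.9% of values under 40 are whole multiples of 1 step (tolerance 0.01), so reads could not be recovered, and a count model was not used. Depth was estimated as the total divided by the step.

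The group was the only term of the limma fit, with a variance trend, robust moderation and Benjamini-Hochberg adjustment; fold changes (acLDL minus control) use log2(value + 5), which shrinks those of low genes. The fit was run on simulated data as a check of the code. That simulation drew values independently and capped the spread of each gene, so it does not show how the fit performs on these libraries. The members, lists and tests were chosen with earlier results of these data known, and the motifs were added to the design after gene values were seen. The rule for named genes took all members, Itgax, the 2 genes of smallest p in each other list and the 3 genes most like a member, of which some are named. Some genes of these lists are not reported here. Alternatives changed the pseudocount, filter, scaling, covariates, moderation and libraries used. Coding transcripts, lengths and coordinates are from GENCODE M21 (GRCm38), which gave a coding length for 86.2% of genes. Same-numbered libraries were not paired in the fit. Software was limma 3.58.1 under R 4.3.3, with Python 3.11.15.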

Additional observations from a re-analysis of the deposited data

Results flagged for a closer look

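Dixon's gap was taken on the values as listed and not on the log2 scale of the fits, where gaps can be smaller. In 8 of 19 groups of 4 libraries checked, 1 library stood apart from the rest by this gap. Chance alone gives about 5% of independent groups if the values are normally distributed, which was not tested. These groups reuse the same 8 libraries and are not independent, and for Ccl4 and Cxcl10 in acLDL cells the libraries listed at 0 set the gap. All 8 were acLDL library 1 or control library 1. In acLDL library 1 these were Ccl2 at 1500.5, Ccl3 at 374, Ccl4 at 71.6, Cxcl2 at 1543 and Cxcl10 at 19.0, each the highest of its group. In control library 1, Ccl3 at 26.8 and Cxcl2 at 409 were the lowest of their group, and Ccl6 at 70949 was the highest.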

How the results depend on the processing

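The count of 0 genes past limma's threshold rested on acLDL library 1. Leaving out each library in turn gave 0 to 2190 genes, with 2190 when acLDL library 1 was left out; quantile normalization gave 1, and no variance trend with no robust moderation gave 3. The median over the 10 ligands ran from -1.46 to -0.42 when each library was left out, and was 0.076 with the short-transcript index. With that index the sign turned for Ccl17 (0.17), Ccl2 (0.052), Ccl4 (0.27), Ccl6 (-0.094) and Ccl9 (-0.043). It also turned for Ccl9 after quantile normalization (-0.064), and without acLDL libraries 2 and 3 for Ccl6 (-0.0225) and Ccl9 (-0.027). The cause was not tested. Of 141 values of the 8 ligands tested in the main fit, taken under alternatives, 130 kept direction and side of the threshold, 8 turned and 3 passed it. All 3 passed without acLDL library 1 (Ccl17, Ccl3 and Cxcl2), where 2190 of 10091 tested genes passed. That library was singled out after its values were seen, so these p-values are not independent tests. Without control library 1, limma's adjusted p was 0.259 for Ccl17, 0.234 for Ccl3 and 0.234 for Cxcl2. Changes of filter, moderation or replicate block leave each fold change as it is, so the 130 include values that could not turn. When each library was left out, the log2 ratio of Ccl22 over Ccl17 ran from 2.25 to 5.15, that of Ccl3 over Ccl4 from -1.76 to -0.99 and that of Ccl9 over Ccl6 from -0.31 to -0.12. The first and the second of these passed the threshold in the exact permutation test without acLDL library 1, each with adjusted p = 0.0429. Each rested on the smallest unadjusted p that the remaining libraries allow in this test. Same-numbered libraries did not deviate together, with correlations of -0.55, -0.21, -0.28 and 0.03; with the replicate number as a block, 0 genes passed, and 730 in place of 1650 had an unadjusted p under 0.05. That count was 701 to 3992 when each library was left out (701 without acLDL library 2, 3992 without acLDL library 1), 503 with the short-transcript index and 305 without acLDL libraries 2 and 3.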
